A study of Mus musculus with 88 samples.

Results

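The 10 genes described here are the cyclins of G1 phase and a set of inhibitors of the kinases those cyclins activate, in mouse embryonic stem cells (ESCs) that lack a subunit of Polycomb repressive complex 2 (PRC2) and in wild-type (WT) cells, before and during differentiation. They were taken by name and not by a cut on a measured value, though earlier results of these data were known at the time. They are the inhibitors Cdkn2a, Cdkn2b, Cdkn2c, Cdkn2d and Cdkn1b and the cyclins Ccnd1, Ccnd2, Ccnd3, Ccne1 and Ccne2. All 10 were found among the 53697 genes of the mesoderm table, the 54393 of the endoderm table, the 26007 of the embryoid body (EB) table and the 15830 of the single-cell table.

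The study asked how loss of PRC2 or of its accessory subunits changes the exit from pluripotency. PRC2 places trimethylation on lysine 27 of histone H3, a mark of silenced genes. Eed belongs to the core of the complex and is needed for its activity, whereas Mtf2 (also called Pcl2) and Jarid2 help to bring it to its targets. WT, Mtf2 null and Jarid2 null cells of the strain label E14 were collected undifferentiated and after 5, 24 and 48 h of directed differentiation toward mesoderm or endoderm, with 2 libraries for each genotype and time in each series. All these cells had been grown in serum with LIF. They received Activin A, CHIR99021 and FGF2, with BMP4 added for mesoderm, for the first 24 h, followed by Activin A with DM3189 for endoderm or A-83-01 with BMP4 for lateral mesoderm. EBs, which are floating aggregates that form tissue of several germ layers once LIF is taken away, were sampled in bulk on days 0, 2, 4 and 7. There was 1 labelled sample a day from each of 6 lines. Most of these 24 samples have more than 1 column of values, and the 46 headers carry replicate marks. The study describes its bulk RNA sequencing as done in technical duplicate. The columns of a sample may thus be separate libraries or runs. They were summed, and each sum is called a library below. The column headers mark day 0 as mono and the later days as eb, so a comparison of a later day with day 0 may also change the culture format. The lines were Mtf2 null and its control Pcl1-3 WT, Jarid2 null and its control JM8, and Eed null and its control J1. For the single-cell experiment, EBs of the strain label E14 that were WT or null for Mtf2, Jarid2 or Eed were dissociated on days 0, 4, 7 and 10 and living cells were sorted, with 1 library for each genotype and day and 4949 cells in all. As far as the labels show, each null genotype is 1 line in each experiment, so the genotype and the line cannot be told apart. The study names Pcl1-3 WT, JM8 and J1 as the controls matched in background. WT cells of the directed and single-cell experiments carry only the label E14, so there genotype and background cannot be told apart either. The study describes the paired libraries of the directed series as technical duplicates, so the p-values below measure a spread that may be technical only.

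Total counts ran from 9111902 to 16898283 per library in the mesoderm series and from 9889619 to 16372822 in the endoderm series. The summed bulk EB samples held 4071242 to 30457254, while a single cell held a median of 6650 unique molecular identifiers (UMIs). The targeted genes only partly checked the labels, since gene-level counts also take reads from any exons that a deletion leaves in place. Mtf2 lay at 30 to 38 CPM (counts scaled to a library total of 1000000) in the directed Mtf2 null libraries and at 206 to 509 CPM in WT. In the directed Jarid2 null libraries and in the bulk EB libraries of all 3 null lines the targeted gene was not depleted to this extent: on day 0 of the EB series Eed was at 111 CPM in Eed null by label and at 106 CPM in its control, Jarid2 at 593 against 503 CPM, and Mtf2 at 316 against 415 CPM. Relative to its control, Mtf2 was lower still on day 0 in the other pairs, at 127 against 302 CPM (Jarid2) and 206 against 407 CPM (Eed). On days 2, 4 and 7 it was 0.54, 0.71 and 0.43 times its control in the Mtf2 pair. It was then 1.22, 0.95 and 0.92 times in the Jarid2 pair, and 0.80, 1.45 and 1.40 times in the Eed pair. Whether the day 0 labels hold was not tested, and all these libraries are named by their labels. In the single cells all 3 targets were low, with 11.5 against 478 UMI CPM for Eed on day 0. Markers of the labelled germ layers were sparse in directed WT cells: the mesoderm list (Mesp1, Tbx6, Pdgfra, Kdr, Hand1 and Foxf1) summed to a mean of 7.7 CPM at 48 h of the mesoderm series.

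A cell passes from G1 into S phase when cyclin-dependent kinases phosphorylate the retinoblastoma protein and release E2F transcription factors. The D-type cyclins (Ccnd1, Ccnd2 and Ccnd3) activate Cdk4 and Cdk6 and respond to growth signals, and the E-type cyclins (Ccne1 and Ccne2) activate Cdk2 at the entry to S phase. The Ink4 proteins, encoded by Cdkn2a (p16), Cdkn2b (p15), Cdkn2c (p18) and Cdkn2d (p19), bind Cdk4 and Cdk6, and Cdkn1b (p27) holds cyclin E complexes in check. From a separate first exon Cdkn2a also encodes Arf, which stabilises p53. Gene-level counts add the p16 and Arf transcripts together, so every Cdkn2a value below is their sum. ESCs have a short G1 phase with high cyclin E and low Ink4 activity, and the locus that holds Cdkn2a and Cdkn2b is a long-known target of PRC2.

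Cdkn2a (ENSMUSG00000044303, chromosome 4, 89274471 to 89294653) and Cdkn2b (ENSMUSG00000073802, chromosome 4, 89306299 to 89311039) lie next to each other on the minus strand of the mouse build GRCm38. Their promoters are shown because, of the members, both genes differed most between null and WT lines in the Eed and Mtf2 pairs of bulk EBs, and because Polycomb-like proteins such as Mtf2 are known to bind unmethylated DNA around GCG. Each window spans 250 bases before an annotated start and 50 from it, 5′ to 3′ along the gene, with every GCG on either strand (GCG or CGC) in capitals, as held by RefSeq for GRCm38.p6. In GENCODE each of the 3 starts falls in an exon of its gene.
Cdkn2a, chr4:89294570-89294869, minus strand: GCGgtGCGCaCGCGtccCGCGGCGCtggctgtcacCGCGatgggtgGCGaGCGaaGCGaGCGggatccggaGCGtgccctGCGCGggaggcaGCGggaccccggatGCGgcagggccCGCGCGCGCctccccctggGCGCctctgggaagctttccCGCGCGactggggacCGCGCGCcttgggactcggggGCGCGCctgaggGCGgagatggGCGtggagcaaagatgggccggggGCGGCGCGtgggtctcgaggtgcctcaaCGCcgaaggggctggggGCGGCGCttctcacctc
Cdkn2a, chr4:89282143-89282442, minus strand: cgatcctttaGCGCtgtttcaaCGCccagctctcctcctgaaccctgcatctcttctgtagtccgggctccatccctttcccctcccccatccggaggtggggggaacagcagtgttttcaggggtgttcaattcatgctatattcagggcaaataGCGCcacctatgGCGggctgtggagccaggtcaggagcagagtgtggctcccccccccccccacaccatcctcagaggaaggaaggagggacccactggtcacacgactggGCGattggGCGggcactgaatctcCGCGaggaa
Cdkn2b, chr4:89310983-89311282, minus strand: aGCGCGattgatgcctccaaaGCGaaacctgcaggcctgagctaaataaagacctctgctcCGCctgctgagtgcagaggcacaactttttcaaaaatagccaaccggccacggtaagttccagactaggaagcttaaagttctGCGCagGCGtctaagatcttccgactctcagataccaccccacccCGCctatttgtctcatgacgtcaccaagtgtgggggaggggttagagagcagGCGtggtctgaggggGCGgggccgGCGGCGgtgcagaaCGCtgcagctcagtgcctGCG
The upstream Cdkn2a window held 53 GCG or CGC matches, overlapping ones included, and as many or more were present in 0.47% of 32851 mouse promoters of the same length. The downstream Cdkn2a window held 10 (as many in 35.04% of promoters) and the Cdkn2b window 15 (25.95%), against a median of 4 over all promoters. The motif TTTNNCGC, one form of the E2F site, occurred once on either strand of each Cdkn2a window and in 5.17% of all promoters. Among the other members with an entry, Ccne1 held 36 matches to GCG or CGC (as many in 3.91% of promoters) and Cdkn1b 30. These are counts of letters and do not show binding.

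Per kilobase of exon, Ccne1 was the highest member in undifferentiated WT cells, at 47.8 ± 7.52 CPM per kb (SD, n = 4 libraries). The length is the union of exons over all annotated transcripts of a gene. It was 8775 bases over 21 transcripts for Ccnd3 and 2662 bases over 5 for Ccne1. Ccnd3 (20.7 ± 3.71) and Ccnd1 (19.2 ± 4.00) followed with overlapping ranges, then Cdkn1b (8.88 ± 1.05), Ccne2 (5.74 ± 0.98) and Cdkn2d (4.35 ± 0.44), of which the latter pair overlapped. Cdkn2a lay at 2.31 ± 0.61 CPM per kb, and Ccnd2 (0.65 ± 0.11), Cdkn2b (0.41 ± 0.17) and Cdkn2c (0.33 ± 0.05) closed the order with each range overlapping the next. The top of this order depends on the division by length. Without it Ccnd3 was the highest member, at 182 ± 32.6 CPM, and Ccne1 was at 127 ± 20.0 CPM. Of the D-type cyclins, these WT cells held mostly Ccnd1 and Ccnd3 before differentiation.

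When WT cells were differentiated, the inhibitor genes Cdkn2a and Cdkn2b and the cyclin Ccnd2 rose by 48 h in both series, and Ccnd3 and Ccne2 fell by 24 h in both. Ccne1 fell by 48 h in the mesoderm series, and its change in the endoderm series was not called. A member was called in the directed series at an adjusted p below 0.001 and a log2 fold change beyond 1 in either direction (edgeR's quasi-likelihood test, Benjamini-Hochberg adjustment over all genes tested). In the mesoderm series 0, 3 and 5 of the 10 members were called at 5, 24 and 48 h, beside 4.13%, 6.96% and 8.64% of all 18361 genes tested. At 5 h 6 members had an unadjusted p below 0.05, and DESeq2 also called 0. In that comparison 36.6% of all genes had even an adjusted p below 0.05. Here and below, counts at an unadjusted p have no matching share of all genes, so they do not show an excess among the members. In the endoderm series 1, 3 and 4 members were called, beside 2.1%, 5.31% and 8.15% of 19261 genes.

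Cdkn2b was at 0.591 and 0.852 CPM in the undifferentiated WT libraries of the mesoderm series and at 6.34 and 8.48 CPM at 48 h, a log2 fold change of 3.32 ± 0.30 (SE) with an adjusted p of 4.7e-08. In the endoderm series it went from 0.284 and 0.562 to 3.72 and 2.92 CPM, a log2 fold change of 2.95 ± 0.46 (adjusted p = 4.0e-05). Cdkn2a went from 3.75 and 2.47 to 10.3 and 12.0 CPM in the mesoderm series (1.85 ± 0.28, adjusted p = 3.0e-05) and from 2.08 and 2.53 to 8.58 and 6.12 CPM in the endoderm series (1.67 ± 0.28, adjusted p = 8.4e-05). The later libraries lay above the undifferentiated ones in both series, with no overlap, for both genes of the locus. The 48 h call of Cdkn2a was lost in mesoderm without undifferentiated WT replicate 2 (1.57, adjusted p = 0.0023), and in endoderm without undifferentiated WT replicate 1 (1.55) or 2 (1.82) or WT 48 h replicate 1 (1.40), and that of Cdkn2b in endoderm without undifferentiated WT replicate 1 (2.56). At 24 h Cdkn2b was called already in both series (1.80 ± 0.33 and 2.78 ± 0.46), but in the mesoderm series not under DESeq2 (1.78, adjusted p = 0.0031), nor without any 1 of the 4 libraries compared (1.59 to 2.09). In endoderm that call was lost without undifferentiated WT replicate 1 (2.39) or 2 (3.34) or WT 24 h replicate 1 (2.14). The remaining inhibitors moved less: neither Cdkn2d, whose directed libraries of all genotypes ran from 3.43 to 10.3 CPM, nor Cdkn1b was called in WT at any time.

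Among the cyclins, Ccnd2 climbed in mesoderm WT cells from 7.00 and 5.54 CPM to 30.6 and 39.7 CPM at 48 h, a log2 fold change of 2.49 ± 0.22 (adjusted p = 3.2e-08). In the endoderm series it reached 14.8 and 14.0 CPM (1.29 ± 0.22, adjusted p = 7.6e-05), after 13.0 and 12.6 CPM at 5 h (1.12 ± 0.22, adjusted p = 6.0e-04) and 5.23 and 5.17 CPM at 24 h. Its 5 h call was lost without either WT 5 h library (1.10 and 1.11), without undifferentiated WT replicate 2 (0.89) or without either Jarid2 null 5 h library (1.12 and 1.12), and its 48 h call without undifferentiated WT replicate 2 (1.06). The WT change at 48 h was larger in mesoderm by 1.20 ± 0.33 on the log2 scale (adjusted p = 0.021 in a fit of both series), which missed the call. None of the 10 members was called for this difference, beside 1.35% of all genes, with 3 at an unadjusted p below 0.05 and 0 called by DESeq2. Ccne1 fell in mesoderm WT cells from 143 and 109 to 58.9 and 54.6 CPM at 48 h (−1.15 ± 0.13, adjusted p = 1.3e-06), and Ccne2 from 15.4 and 20.2 to 8.57 and 5.79 CPM (−1.30 ± 0.22, adjusted p = 1.0e-04). The 48 h call of Ccne2 was lost without WT 48 h replicate 2 (−1.05) or undifferentiated WT replicate 2 (−1.09), and the Ccne1 call without undifferentiated WT replicate 1 (−0.94). Ccne2 was already called at 24 h of mesoderm (−1.17). That call was lost without WT 24 h replicate 1 (−1.11) or 2 (−1.20) or undifferentiated WT replicate 2 (−0.95). In the endoderm series Ccne1 went from 146 and 110 to 89.7 and 73.4 CPM at 48 h (−0.65 ± 0.12, adjusted p = 3.0e-04), short of the fold limit. Ccne2 was called there at 24 h, at 9.01 and 11.6 from 21.2 and 23.5 CPM (−1.11 ± 0.19, adjusted p = 1.3e-04), though not without undifferentiated WT replicate 2 (−1.03) or WT 24 h replicate 1 (−0.95), and it was not called at 48 h (−0.84 ± 0.19, adjusted p = 0.0017). Before these falls, at 5 h of mesoderm, Ccne1 stood at 156 and 158 CPM (0.31, adjusted p = 0.069). Ccnd3, at 232 and 247 CPM at 5 h (0.36, adjusted p = 0.050), was lowest at 24 h in the mesoderm series, at 68.2 and 71.2 CPM from 220 and 153 CPM (−1.42 ± 0.15, adjusted p = 4.0e-07), and stood at 108 and 114 CPM by 48 h. In the endoderm series it remained low at 48 h, with 78.5 and 51.2 CPM (−1.45 ± 0.16, adjusted p = 5.4e-07).

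**Figure D1:**
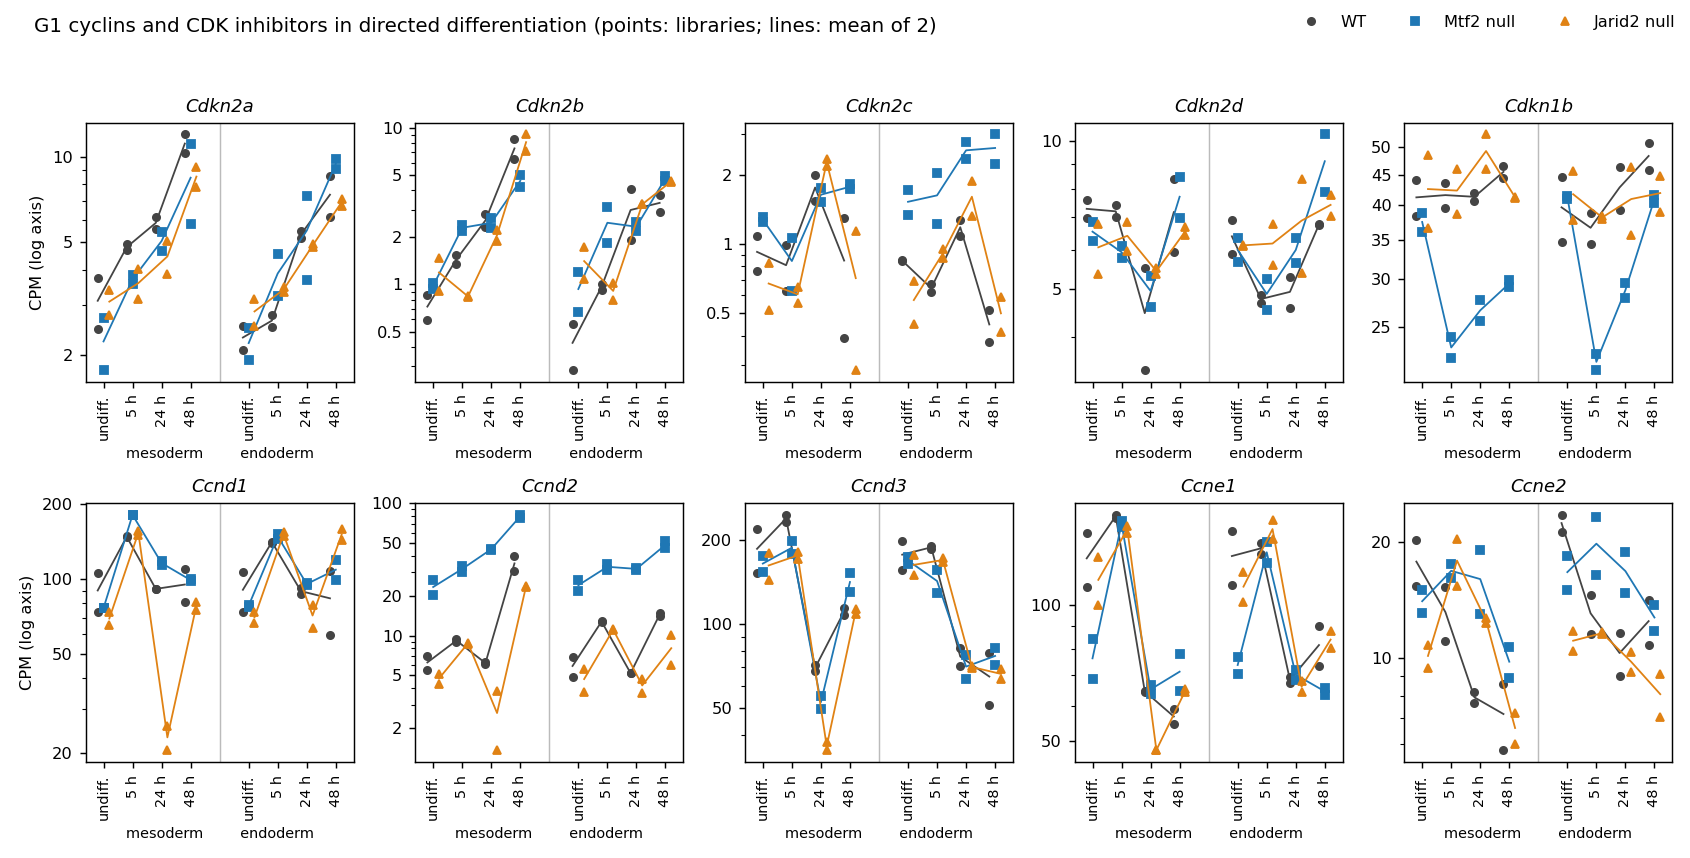
Level of each of the 10 members in CPM (log axis) at each time of the directed series, mesoderm on the left and endoderm on the right of each pair. Points are libraries, lines join the mean of 2 libraries, and colours are genotypes. The Mtf2 null points for Ccnd2 sit above the WT points at every time, and those for Ccnd1 of the libraries labelled Jarid2 null drop to 20.6 and 25.7 CPM at 24 h of the mesoderm series.

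In the Mtf2 null cells, Ccnd2 was higher than in WT at every time of both series, and it was the only member called in more than 1 of the 8 comparisons. The mesoderm series gave 4 calls out of 40 and the endoderm series 5 out of 40, beside 11.1%, 7.56%, 5.73% and 6.82% of all genes in the mesoderm series and 11%, 7.61%, 6.58% and 10.5% in the endoderm series (undifferentiated, 5, 24 and 48 h). With 1 of 10 members called at each time, and 2 at 48 h of endoderm, the share was near that of all genes except there. The median log2 difference of the 10 members was between −0.16 and 0.22 in mesoderm and between −0.07 and 0.37 in endoderm, beside −0.021 to 0.0064 and −0.048 to −0.0039 over all genes, with members on both sides of 0. All these comparisons, and those of the libraries labelled Jarid2 null, share the same WT libraries.

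Undifferentiated Ccnd2 was at 7.00 and 5.54 CPM in WT and at 20.2 and 26.4 CPM in Mtf2 null libraries of the mesoderm series, and at 6.91 and 4.87 against 21.7 and 26.4 CPM in the endoderm series. The log2 difference over both series was 1.97 ± 0.14 (adjusted p = 2.2e-08, 4 libraries against 4), the only call among the 10 members beside 14.7% of all genes. The undifferentiated libraries of the 2 series may share cultures, which the labels do not resolve. Within each genotype, libraries of the same number in the 2 series differed less (chi-square per degree of freedom over genes from 5.19 to 19.3) than those of other numbers (7.53 to 22.3), and in WT the closest of these values were nearly equal at 19.3 and 19.4. If they share RNA, the p-values of 4 against 4 are too small. Within the series the differences were 1.90 ± 0.22 and 2.03 ± 0.21. At 24 h the gap was widest: 6.06 and 6.35 against 45.5 and 44.5 CPM in mesoderm (2.86 ± 0.21, adjusted p = 3.7e-09), and 5.23 and 5.17 against 32.3 and 31.6 CPM in endoderm (2.62 ± 0.20, adjusted p = 1.8e-09). At 48 h Ccnd2 was at higher levels in both genotypes, with 30.6 and 39.7 in WT against 82.1 and 77.7 CPM in Mtf2 null mesoderm (1.19 ± 0.18, adjusted p = 4.3e-05) and 14.8 and 14.0 against 51.5 and 45.7 CPM in endoderm (1.75 ± 0.18, adjusted p = 9.5e-08). No Mtf2 null library overlapped the WT libraries at any time. The 48 h mesoderm call was lost without Mtf2 null replicate 1 (1.14, adjusted p = 0.0011) or without WT replicate 1 (1.01, adjusted p = 0.0021).

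A list of trophoblast markers (Cdx2, Elf5, Krt8 and Krt18) moved with Ccnd2: its summed level was 285 to 320 CPM in Mtf2 null against 50.8 to 100 CPM in WT mesoderm libraries at 48 h, and 47.6 to 69.5 against 17.1 to 20.7 CPM before differentiation. Krt8 and Krt18, which other epithelial cells also express, carried nearly all of it, and Cdx2 never passed 0.6 CPM. The fibroblast list (Col1a1, Col1a2, Col3a1, Thy1, Postn, Lum and Dcn) summed to at most 12.2 CPM in any directed library. Their part in the Ccnd2 difference was not tested. In bulk RNA, fewer cells that express a gene and less RNA per cell cannot be told apart.

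Of the other members only Cdkn2c was called in Mtf2 null cells, at 1 time. Cdkn2c, the p18 inhibitor, was at 0.520 and 0.377 CPM in WT and 2.99 and 2.23 CPM in Mtf2 null endoderm at 48 h, a log2 difference of 2.51 ± 0.40 (adjusted p = 3.9e-05). The same contrast in mesoderm gave 0.392 and 1.30 against 1.73 and 1.82 CPM (1.10 ± 0.50, adjusted p = 0.11), and the difference between the series, −1.39, had an adjusted p of 0.26. The endoderm call was lost without WT 48 h replicate 2 (2.30, adjusted p = 0.0018). Cdkn1b lay below WT once differentiation had begun, at 24.0 and 22.1 against 43.6 and 39.5 CPM at 5 h of the mesoderm series (−0.85 ± 0.13, adjusted p = 4.4e-05) and 21.2 and 22.5 against 38.8 and 34.4 CPM in endoderm (−0.75 ± 0.15, adjusted p = 4.5e-04). These groups did not overlap, and the changes fell short of the fold limit, as did those at 24 h (−0.63 ± 0.13 and −0.57 ± 0.14). Before differentiation Cdkn1b differed by only −0.14 and 0.06. Cdkn2a was not called at any time, with log2 differences from −0.47 to 0.55.

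Ccne1 was lower in undifferentiated Mtf2 null cells, at 68.5 and 83.9 CPM against 143 and 109 CPM in WT of the mesoderm series (−0.73 ± 0.13, adjusted p = 1.8e-04) and 70.4 and 76.9 against 146 and 110 CPM in the endoderm series (−0.80 ± 0.12, adjusted p = 2.5e-05), short of the fold limit. At 48 h of the mesoderm series it was 77.9 and 64.6 CPM in the mutant and 58.9 and 54.6 CPM in WT (0.33 ± 0.13, adjusted p = 0.077). The change from undifferentiated to 48 h therefore differed between the genotypes by 1.06 ± 0.19 on the log2 scale (adjusted p = 6.8e-04), the 1 interaction called among the 10 members in mesoderm beside 2.71% of all genes. That call stood at its threshold: it was kept in 7 of 24 refits that each left out 1 library, where the value ran from 0.84 to 1.24. In endoderm the interaction was 0.46 ± 0.17 (adjusted p = 0.067), and none was called beside 5.24% of all genes (3 members at an unadjusted p below 0.05, 0 by DESeq2). For the Jarid2 null label no interaction was called, beside 0.0545% of all genes in mesoderm and 0.514% in endoderm (1 and 2 members at an unadjusted p below 0.05), and DESeq2 called Ccnd1 in endoderm (1.19). Ccne2, the other E-type cyclin, was at 19.0 and 13.0 CPM in Mtf2 null against 7.68 and 8.17 CPM in WT mesoderm at 24 h (1.01 ± 0.22, adjusted p = 0.0020), not called.

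The libraries labelled Jarid2 null differed from WT mainly at 24 h of the mesoderm series, where all 3 D-type cyclins were lower. Ccnd1 was at 91.5 and 91.2 CPM in WT and at only 20.6 and 25.7 CPM in the mutant by label, a log2 difference of −1.99 ± 0.16 (adjusted p = 5.0e-07). This was the only call out of 40 in mesoderm, beside 0.37%, 0%, 1.98% and 0.169% of all genes at the 4 times. At the other 3 times 2, 1 and 1 member had an unadjusted p below 0.05, and DESeq2 called 0. Ccnd3 lay at 68.2 and 71.2 against 35.3 and 37.7 CPM (−0.93 ± 0.15, adjusted p = 2.7e-04) and Ccnd2 at 6.06 and 6.35 against 1.36 and 3.83 CPM (−1.31 ± 0.29, adjusted p = 0.0027), each just outside 1 of the limits. DESeq2 called Ccnd2 (−1.28), and so did the fit without Jarid2 null 24 h replicate 2 (−2.19, adjusted p = 7.5e-05). None of these WT and mutant libraries overlapped. At 48 h Ccnd1 was at 81.3 and 75.5 against 109 and 80.8 CPM (−0.28, adjusted p = 0.41).

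In the endoderm series Ccnd1 at 24 h was 87.1 and 91.9 CPM in WT and 79.1 and 63.8 CPM in the mutant by label (−0.33 ± 0.19, adjusted p = 0.64). The test of the difference between the series, in a fit of all 48 libraries, gave −1.68 ± 0.26 (adjusted p = 5.4e-04), beside 0.117% of all genes called. It was the only call among the members for any difference of a genotype effect between the series: the same tests called 0.0051%, 0.0051%, 0.0051% and 1.06% of all genes for Mtf2 null (undifferentiated, 5, 24 and 48 h) and 0%, 0% and 0.0153% for the other times of the Jarid2 null label. Of the members, 0, 1, 1 and 5 and, for those other times, 0, 0 and 1 had an unadjusted p below 0.05, and DESeq2 was not run on them. No member was called in endoderm at any of the 4 times, beside 0.742%, 0.0363%, 0.0312% and 0.125% of all genes. The counts at an unadjusted p below 0.05 were 2, 0, 1 and 3, and DESeq2 likewise called 0. At 48 h Ccnd1 was higher, at 143 and 159 against 108 and 59.8 CPM (0.85 ± 0.19, adjusted p = 0.0086), and without WT 48 h replicate 1 this passed the call at 1.32. Over the undifferentiated cells of both series Ccne2 was lower by −0.94 ± 0.12 (adjusted p = 9.8e-05), short of the fold limit, with 9.45 and 10.8 against 15.4 and 20.2 CPM in the mesoderm series and 11.8 and 10.5 against 21.2 and 23.5 CPM in the endoderm series. None of the 10 was called there, beside 1.15% of all genes (4 members at an unadjusted p below 0.05, 0 by DESeq2).

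**Figure D2:**
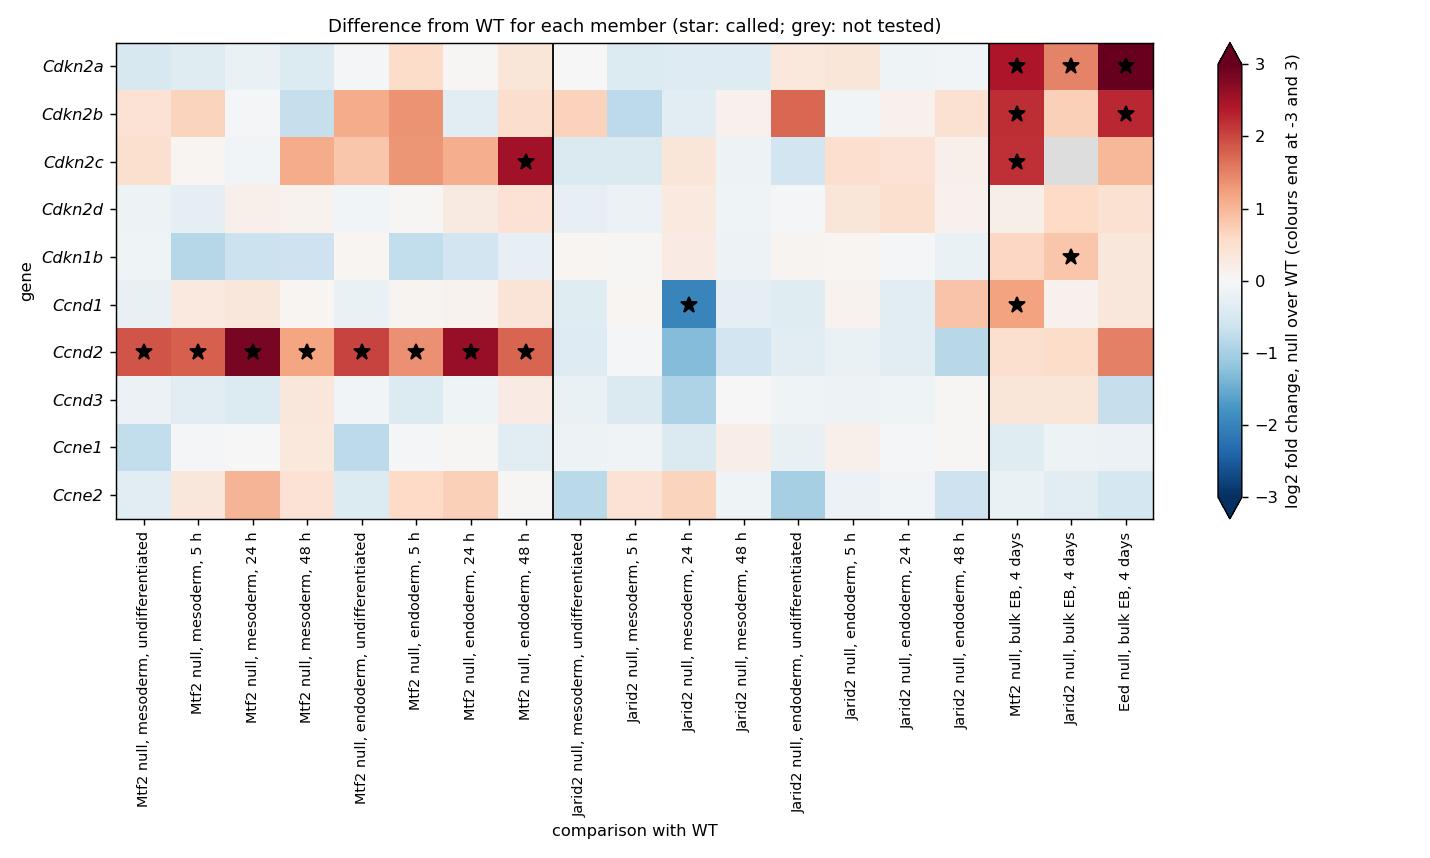
Log2 fold change of each member (rows) between null and WT libraries in the 16 directed and 3 bulk EB comparisons (columns), red for higher and blue for lower in the null. A star marks a call and grey a gene that was not tested. Ccnd2 is starred in all 8 directed Mtf2 comparisons, and Cdkn2a in all 3 EB pairs.

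In the bulk EB series Cdkn2a was higher in the libraries labelled null in all 3 pairs, with no overlap with the controls, and Cdkn2b was higher in the Mtf2 and Eed pairs. With 1 summed sample for each line and day, the 4 days served as the replicates of a pair (limma with day as a block). Any spread between the columns summed into a sample was not used. A call here is an adjusted p below 0.05. Of the 10 members 4 were called in the Mtf2 pair and 2 in the Eed pair, and in the Jarid2 pair 2 of the 9 tested, beside 8.07%, 9.59% and 16.5% of all genes. All of these calls were higher in the null, beside 4.72%, 4.98% and 8.18% of all genes called higher. The median log2 difference of the members was 0.54, 0.40 and 0.56, beside 0.005, 0.001 and 0.028 over all genes, in the order Mtf2, Eed and Jarid2. Each pair has a control line of its own, so the values are compared within pairs.

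Cdkn2a was at 3.56, 4.91, 1.54 and 4.16 CPM on days 0, 2, 4 and 7 in the Eed WT line, and at 33.3, 21.1, 30.4 and 56.0 CPM in the Eed null line by label. The mutant value was 4.29 to 19.8 times that of its control, a mean log2 difference of 3.26 ± 0.36 (adjusted p = 0.015). In the Mtf2 pair it was at 9.38, 14.7, 25.9 and 34.97 against 4.24, 3.42, 1.97 and 4.63 CPM (2.42 ± 0.41, adjusted p = 0.016), so that the gap was 2.21-fold on day 0 and 13.2-fold on day 4. The Jarid2 pair gave 16.4, 5.53, 5.36 and 8.59 against 3.19, 3.16, 1.77 and 3.49 CPM (1.49 ± 0.32, adjusted p = 0.024), with its largest ratio, 5.14, on day 0. The null library was thus higher on 4 of 4 days in every pair. With any 1 day left out the direction held in each pair, at 2.98 to 3.66 for Eed, 2.04 to 2.85 for Mtf2 and 1.20 to 1.70 for Jarid2, but the call was kept in 0, 1 and 1 of 4 such refits.

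Cdkn2b followed Cdkn2a in the Eed and Mtf2 pairs. It was at 1.60, 1.06, 1.02 and 2.64 CPM in the Eed WT line and 9.77, 3.31, 4.98 and 23.6 CPM in the paired null line (2.27 ± 0.35, adjusted p = 0.021), and at 2.61, 2.95, 6.67 and 13.9 against 0.889, 0.760, 0.656 and 2.11 CPM in the Mtf2 pair (2.22 ± 0.41, adjusted p = 0.022). Leaving out a day kept the call in 0 and 1 of 4 refits. In the Jarid2 pair Cdkn2b was at 5.89, 1.81, 1.05 and 2.28 against 1.14, 1.03, 1.33 and 2.18 CPM, lower in the null on day 4, and the difference over days was 0.70 ± 0.49 (adjusted p = 0.35). Cdkn2c was higher in the Mtf2 pair, at 1.71, 1.28, 3.11 and 4.59 against 0.410, 0.253, 0.164 and 1.05 CPM (2.20 ± 0.47, adjusted p = 0.032), and this call was lost with no filter on low values (2.18, adjusted p = 0.062) and without day 2 (2.31, adjusted p = 0.077), while without any other day the gene was too low to be tested. In the Jarid2 pair Cdkn2c was too low to be tested, and in the Eed pair it was higher on 4 of 4 days by 1.81 to 2.60 times (0.99 ± 0.31, adjusted p = 0.093).

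The neighbour Mtap, a gene of methionine salvage beside Cdkn2a, was not called higher in any pair. It was lower in the Jarid2 pair (−0.64, adjusted p = 0.040) and not called in the others. On days 0, 2, 4 and 7 it was 1.06, 1.28, 0.99 and 1.62 times its control in the Eed pair. In the Mtf2 pair it was 0.57, 0.77, 1.03 and 0.84 times. Fibroblast markers varied widely between these libraries. Their summed level on days 0, 2, 4 and 7 was 22, 19, 132 and 5864 CPM in the Eed WT line and 72, 34, 54 and 892 CPM in the paired null line. On day 7 they were higher in the null line of the other pairs, at 1635 against 467 CPM (Jarid2) and 399 against 106 CPM (Mtf2), where Cdkn2a was higher too. Their part in the differences was not tested. Trophoblast markers on day 0 summed to 781 CPM in the Eed null line against 121 CPM in its control, and to 328 against 20 CPM in the Jarid2 pair, nearly all from Krt8 and Krt18. Without day 0 the Cdkn2a difference was 3.31 (adjusted p = 0.056) in the Eed pair and 1.20 (adjusted p = 0.055) in the Jarid2 pair.

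Cdkn1b was higher in the library labelled Jarid2 null on every day, at 39.3, 55.8, 108 and 88.3 against 27.4, 27.9, 68.9 and 44.9 CPM (0.82 ± 0.13, adjusted p = 0.011), which is 1.43 to 2.00 times its control. This call was lost without day 4 (adjusted p = 0.059) or day 7 (adjusted p = 0.064). In the Mtf2 pair it was 1.33 to 1.66 times higher on 4 of 4 days (0.61 ± 0.16, adjusted p = 0.056). In the directed Mtf2 null libraries the differences during differentiation had the opposite sign. Cdkn2d did not overlap between the Jarid2 pair, at 12.3, 7.95, 8.24 and 10.9 against 6.22, 6.24, 6.94 and 6.66 CPM, but was not called (0.60 ± 0.23, adjusted p = 0.12).

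Of the cyclins, only Ccnd1 in the Mtf2 pair was called, at 68.3, 105, 77.8 and 86.9 CPM against 24.1, 61.7, 36.7 and 30.8 CPM (1.22 ± 0.19, adjusted p = 0.012), with no overlap. Without day 4 its adjusted p was 0.051. Ccnd2 was not called in any pair, and in the Mtf2 and Jarid2 pairs the order of null and WT changed between days. In the Mtf2 pair it was at 3.51, 23.6, 124 and 334 CPM in the null against 18.9, 55.1, 29.8 and 31.2 CPM (0.48 ± 0.84, adjusted p = 0.75), so the null was lower on days 0 and 2 and higher on days 4 and 7. The day 0 order was opposite to that of the directed undifferentiated cells, with means of 23.7 CPM in Mtf2 null and 6.08 CPM in WT. In the Eed pair the null was higher on 4 of 4 days, at 86.3, 43.8, 172 and 381 against 6.59, 22.8, 153 and 167 CPM (1.502 ± 0.53, adjusted p = 0.12), with the ratio falling from 13.1 on day 0 to 1.13 on day 4. In the Jarid2 pair the null was higher on days 0, 4 and 7 but at 4.41 against 38.4 CPM on day 2, and without that day the difference was 1.74 (adjusted p = 0.045).

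Ccnd3 and Ccne2 were lower in the library labelled Eed null on 4 of 4 days, without a call (−0.68 ± 0.22, adjusted p = 0.094, and −0.53 ± 0.15, adjusted p = 0.078). Ccne1 peaked on day 2 in all 6 lines, for example at 176 CPM in the Eed WT line and 92.0 CPM in its mutant. Across the 3 WT lines 6 of 30 member values were called against day 0, beside 12.7%, 15.8% and 26.2% of all genes on days 2, 4 and 7. Ccnd1 (1.42 ± 0.36, adjusted p = 0.034) and Ccne2 (1.20 ± 0.27, adjusted p = 0.026) were higher on day 2. Cdkn1b was higher on day 4 (0.83 ± 0.18, adjusted p = 0.015) and on day 7 (0.61). Ccnd2 was higher on day 7 (2.91 ± 0.74, adjusted p = 0.020), when Ccne1 was lower (−1.15 ± 0.30, adjusted p = 0.022). All 6 calls were lost when the Jarid2 WT line was left out (adjusted p from 0.22 to 0.30). Those of Ccnd1, Ccne2 and Cdkn1b on day 4 were also lost without the Mtf2 WT line, and that of Ccne1 without the Eed WT line. Cdkn1b on day 7 kept its call in 0 of 3 such refits, and Ccnd2 in 2 of 3.

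**Figure D3:**
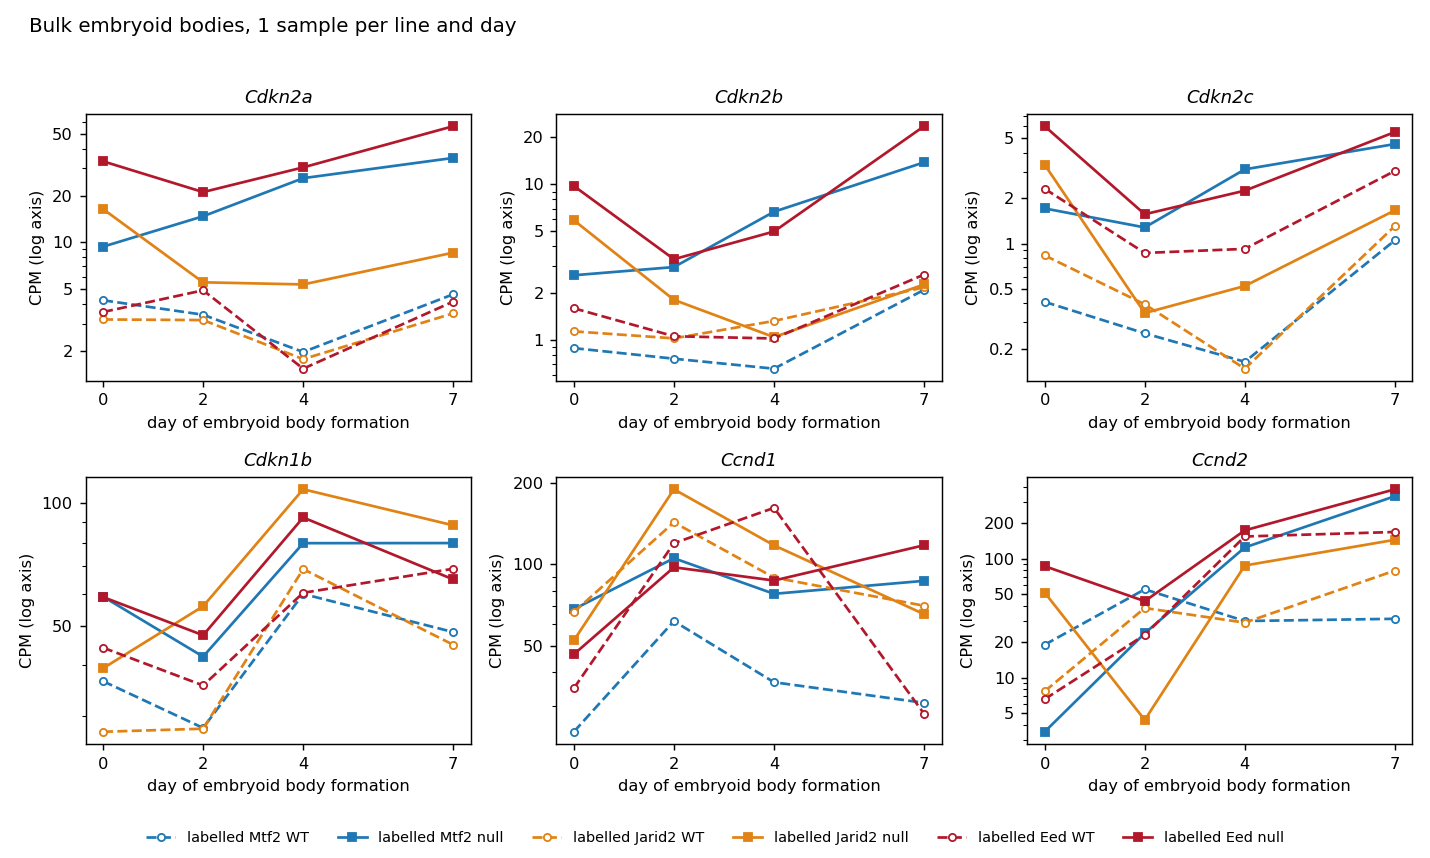
CPM (log axis) of 6 members in bulk EBs on days 0, 2, 4 and 7, with 1 summed sample a point. Dashed lines are the WT line and solid lines the null line of each pair. For Cdkn2a the solid lines lie above the dashed lines of their own pair on all days, while for Ccnd2 the lines of the Mtf2 pair cross.

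In single cells of EBs, Cdkn2a and Cdkn2b were higher in the Eed null cells than in WT on every day, while over all days the intervals of Mtf2 null and Jarid2 null cells overlapped that of WT. With 1 library for each genotype and day there is no test. Values are UMIs of the gene scaled to 1000000 UMIs summed over the cells of a library (UMI CPM), with exact Poisson 95% intervals that cover counting error only. Every well barcode recurred in more than 1 library, since each plate uses the same set. On days 0, 4, 7 and 10 Cdkn2a was at 6.48 (4.06 to 9.81), 14.6 (10.1 to 20.5), 17.4 (12.5 to 23.6) and 21.6 (14.5 to 31.1) UMI CPM in Eed null cells, from 22, 33, 41 and 29 UMIs. In WT it was at 2.01, 1.87, 3.77 and 0.715, from 6, 4, 8 and 1 UMIs. The ratio was 3.23 (1.27 to 9.73) on day 0, 7.83 (2.78 to 30.4) on day 4 and 4.62 (2.14 to 11.4) on day 7, and on day 10 it rested on 1 WT UMI, at 30.3 (5.02 to 1236). Over all days the level was 13.4 (11.1 to 15.9) in Eed null cells, against 2.20 (1.32 to 3.43) in WT, 2.32 (1.52 to 3.40) in Mtf2 null and 1.60 (0.896 to 2.64) in Jarid2 null cells. The interval of the Eed null cells lay apart from those of the other 3 genotypes. The Mtf2 null ratio was 1.54 (0.53 to 4.99), 2.16 (0.64 to 9.28) and 0.33 (0.06 to 1.38) on days 0, 4 and 7. On day 10 Mtf2 null cells held 0 UMIs and WT 1. The Jarid2 null ratio was 1.09, 1.06, 0.28 and 0.81 on the 4 days. The bulk pairs, which have other control lines, stood higher on days 0, 4 and 7. Their ratios were 2.21, 13.2 and 7.55 (Mtf2) and 5.14, 3.03 and 2.46 (Jarid2).

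Cdkn2b rose by day in the Eed null cells, at 3.24 (1.62 to 5.80), 7.53 (4.39 to 12.1), 16.6 (11.8 to 22.6) and 24.6 (17.0 to 34.6) UMI CPM, against 0.669, 1.87, 2.35 and 1.43 in WT. The ratio to WT was 4.84 (1.06 to 44.95), 4.03 (1.32 to 16.5), 7.03 (2.77 to 22.9) and 17.2 (4.40 to 148). Cdkn2c was at 6.18, 6.20, 10.2 and 5.22 in Eed null cells and 1.34, 0, 2.83 and 2.15 in WT, where the 0 of day 4 allows up to 1.40 (3 UMIs). The Cdkn2c ratio to WT was 4.62 (1.56 to 18.5) on day 0, 3.61 (1.44 to 10.8) on day 7 and 2.43 (0.56 to 14.6) on day 10. The last interval spans 1 and rests on 7 against 3 UMIs. For these 3 inhibitors the Eed null libraries had the highest values of the 4 genotypes on all 4 days. For Cdkn2b on day 0 the margin was small, at 3.24 against 2.83 UMI CPM in Mtf2 null cells, each from 11 UMIs. Cdkn2d ran from 19.0 to 33.2 UMI CPM over the 16 libraries.

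Cdkn1b stood out in the Jarid2 null cells instead, at 97.2, 161, 124 and 130 UMI CPM against 67.2, 96.6, 65.4 and 91.6 in WT, or 1.45 (1.21 to 1.73), 1.67 (1.41 to 1.98), 1.90 (1.53 to 2.36) and 1.42 (1.13 to 1.77) times WT. The counting interval lay above 1 on all 4 days, the same side as in the bulk EB Jarid2 pair. In the directed series the Jarid2 null label gave no call for Cdkn1b, with log2 differences from −0.21 ± 0.14 at 48 h of endoderm to 0.26 ± 0.12 at 24 h of mesoderm.

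Ccnd2 was higher on days 7 and 10 than on day 0 in every genotype and reached its highest levels in Eed null cells, at 90.4 (80.6 to 101), 77.5 (66.5 to 89.9), 622 (590 to 655) and 1416 UMI CPM against 8.70, 27.1, 315 and 398 in WT. The ratio was 10.4 (6.96 to 16.2) on day 0, 2.86 (2.12 to 3.92) on day 4, 1.98 (1.80 to 2.17) on day 7 and 3.56 (3.24 to 3.92) on day 10. Mtf2 null cells exceeded WT on day 0, at 2.84 times (1.82 to 4.56), and on day 10, at 2.20 times (2.00 to 2.42), but not on days 4 and 7 (1.08 and 0.99). In Jarid2 null cells the ratio went from 2.36 (1.48 to 3.88) on day 0 to 0.12 (0.05 to 0.25) on day 4. It was 0.62 on day 7 and 0.69 on day 10. In the bulk Jarid2 pair, which has another control line, the ratio was also above 1 on day 0 (6.75). On days 4 and 7 the bulk ratio lay on the other side of 1 from the single cells, at 3.02 and 1.81, and its low value was on day 2 (0.11).

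Ccnd3 was lower in Eed null than in WT cells, at 55.1, 30.1, 51.8 and 97.8 against 117, 54.6, 65.9 and 246 UMI CPM, and on day 7 the interval of the ratio, 0.79 (0.61 to 1.01), reached 1. Ccne1 fell from 734 on day 0 to 80.1 on day 10 in WT and in the same direction in the other genotypes, and in Jarid2 null cells it was 1.90, 1.65 and 1.92 times WT on days 4, 7 and 10. Ccne2 in WT dipped to 16.8 (11.8 to 23.3) on day 4, where the cells null for Mtf2 (49.8), Jarid2 (53.5) and Eed (32.8) were all higher. Ccnd1 in Eed null cells moved from 0.58 times WT on day 0 to 2.58 times on day 10. Fibroblast markers in Eed null cells summed to 49.8, 45.2, 256 and 1774 UMI CPM on the 4 days against 3.01, 11.7, 145 and 1649 in WT, and their part in these differences was not tested.

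**Figure D4:**
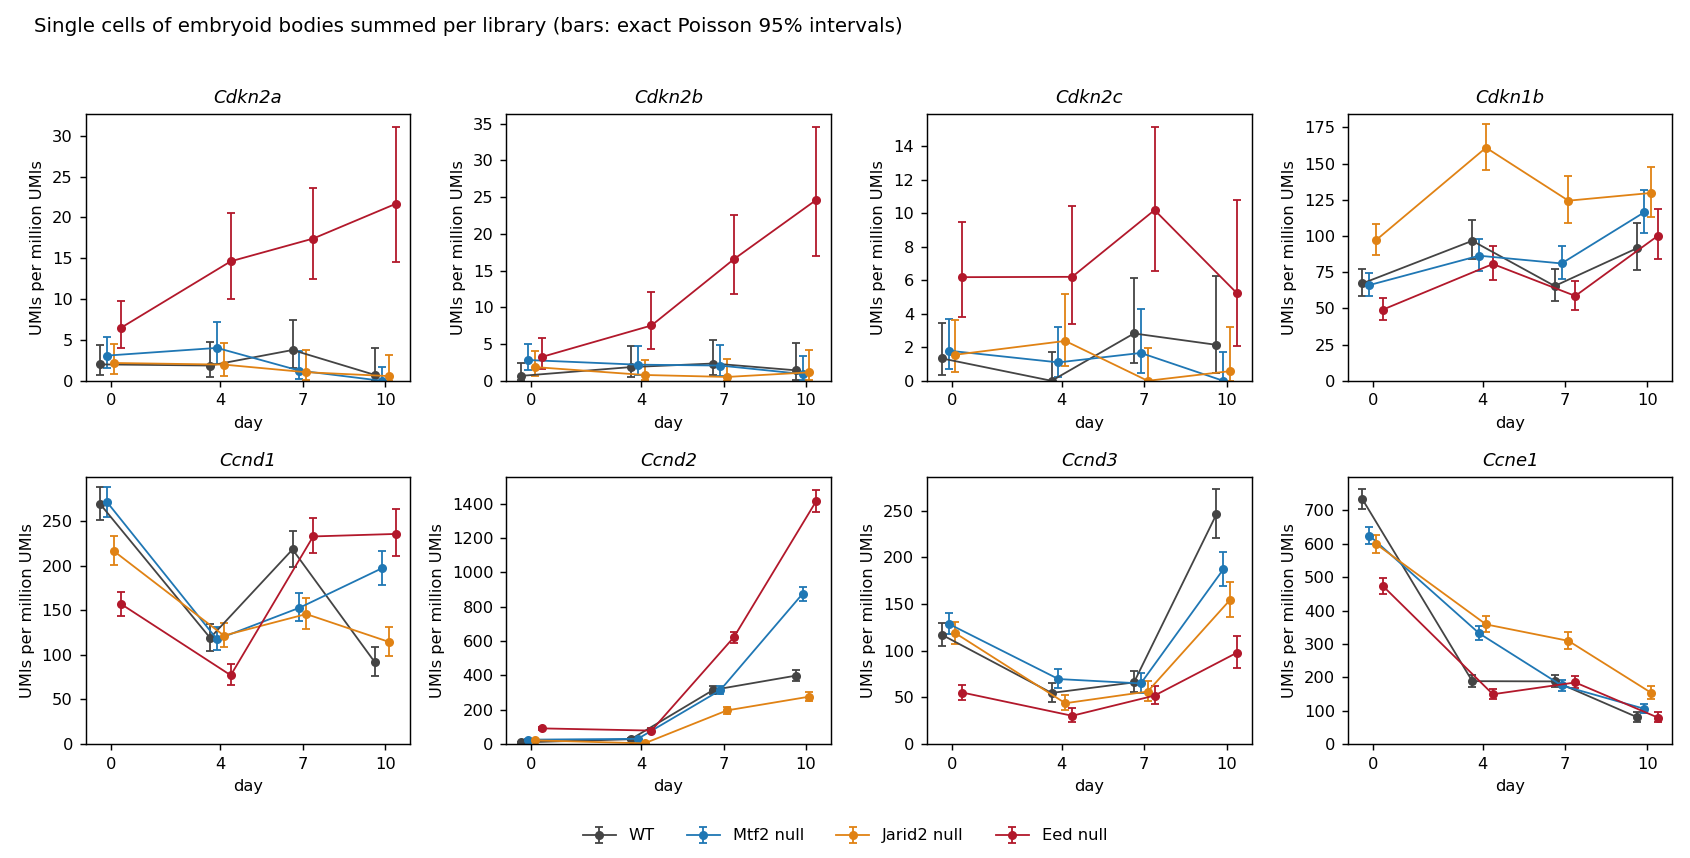
UMI CPM (linear axis, labelled as UMIs scaled to the total) of 8 members by day of EB differentiation in single-cell libraries of 4 genotypes, 1 library a point, with exact Poisson 95% intervals as bars. The Eed null points for Cdkn2a, Cdkn2b, Cdkn2c and Ccnd2 lie above WT on all 4 days. For Cdkn2c on day 10 the interval of the ratio (0.56 to 14.6) spans 1.

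Across the 22 clusters that the study defined, Cdkn2a was concentrated in those made up of Eed null cells. The clusters were built from the same cells and genes, so these values are a description. In 5 clusters over 50% of the cells were Eed null: cluster 6 (303 of 303 cells), cluster 9 (257 of 258), cluster 10 (244 of 244), cluster 13 (197 of 226) and cluster 16 (123 of 134). Cdkn2a in these was at 6.27, 9.71, 15.2, 19.1 and 20.5 UMI CPM, with a median of 15.2. The other 17 clusters ran from 0 to 7.07 with a median of 2.34, and the highest of them, cluster 19, rested on 3 UMIs. Cluster 6, of Eed null cells alone, thus fell within the range of the other clusters.

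Cdkn2b ran from 2.97 to 26.4 (median 11.6) in these 5 clusters and from 0 to 4.62 (median 1.56) in the others, and Cdkn2c from 5.94 to 7.92 (median 7.63) against 0 to 4.69 (median 0.752). In clusters 13 and 16, which also held 29 and 11 cells of other genotypes, the Eed null cells were at 21.8 and 22.2 UMI CPM of Cdkn2a, and the other cells held 0 UMIs, which allows up to 16.0 and 35.2 UMI CPM (3 UMIs), so a difference could not be shown at this depth. Ccnd2 had no such split: it ran from 54.1 to 1414 (median 149) in the Eed null clusters and from 8.44 to 1046 (median 211) in the rest. Its highest levels were in cluster 13 (1414), of mostly Eed null cells, and cluster 15 (1046), of mostly Mtf2 null and Jarid2 null cells. Ccnd3 peaked in cluster 18 (404), Ccne1 in cluster 3 (732), of mostly WT cells, and Cdkn1b in cluster 2 (187), of Mtf2 null and Jarid2 null cells.

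**Figure D5:**
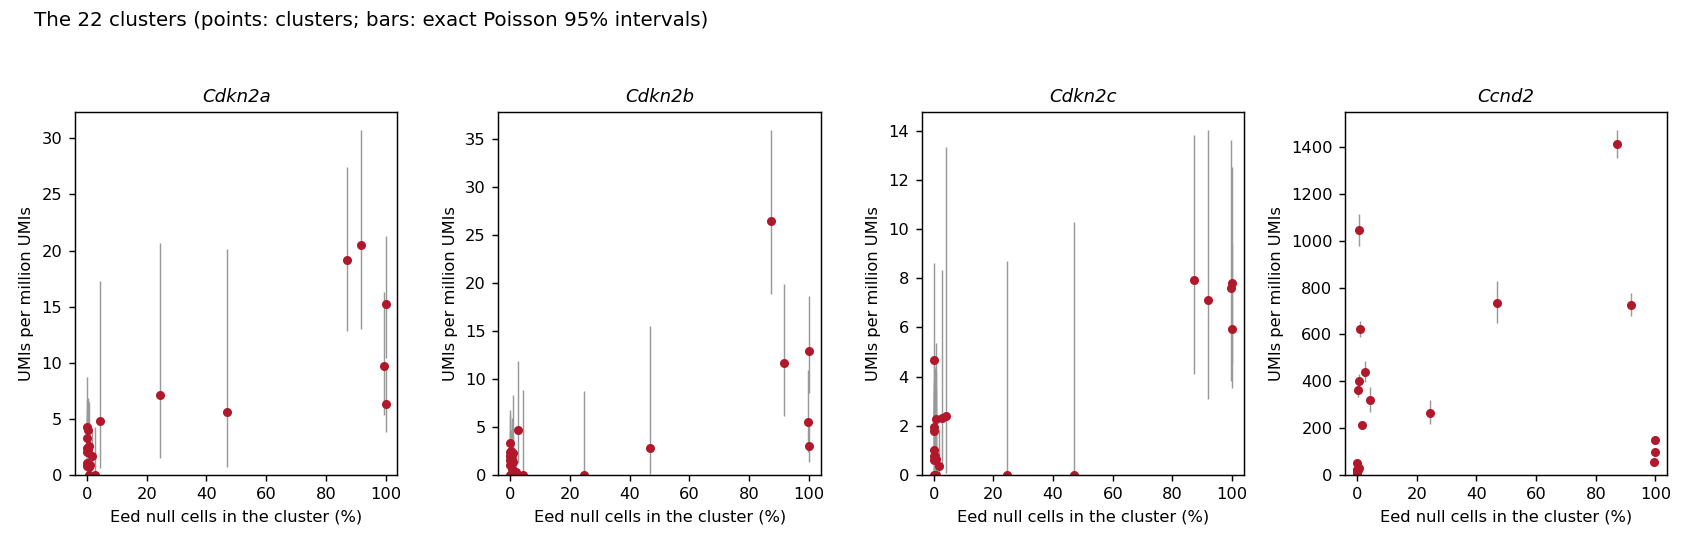
UMI CPM of Cdkn2a, Cdkn2b, Cdkn2c and Ccnd2 (vertical axes) in the 22 clusters against the percent of a cluster's cells that are Eed null (horizontal axis), with exact Poisson 95% intervals as bars. The 5 clusters over 50% Eed null hold the 4 highest Cdkn2a values, whereas Ccnd2 reaches 1046 in a cluster with almost no Eed null cells.

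The wider G1 and S phase machinery was read from a list of 26 further genes, of which 25 passed the filter in the directed series. In undifferentiated Mtf2 null cells of both series 2 were higher and 2 lower by the same call, beside 14.7% of all genes: Mycn (1.49) and Cdk6 (1.09), a partner of the D-type cyclins, were higher, and Cdkn1c (−2.34 ± 0.10), the p57 inhibitor, and E2f2 (−1.09) lower. After differentiation began, Rbl2, a relative of the retinoblastoma protein, was lower in Mtf2 null cells at 5, 24 and 48 h of mesoderm (−1.09 to −1.37) and at 5 and 24 h of endoderm. In the undifferentiated libraries labelled Jarid2 null Myc (−1.73) and Mycn (−1.34), which drive growth, were lower, as they were at 24 h of mesoderm (−1.13 and −1.24), the time at which the D-type cyclins were low. In WT the p53 target Cdkn1a, encoding p21, rose by 24 h (2.70 in mesoderm and 2.41 in endoderm), and Cdkn1c fell (−3.39 and −3.24).

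In the bulk Eed pair Cdkn1a was lower in the library labelled null (−2.56 ± 0.30, adjusted p = 0.016), the direction opposite to that of Cdkn2a, and 3 others of the list were called higher: Ccna1 (2.70), Fbxw7 (0.75) and Ccna2 (0.67). These 4 calls were 15.4% of the list, beside 9.59% of all genes. The Mtf2 pair had 2 higher and 1 lower, 11.5% beside 8.07% (E2f2 at 1.46, Cdkn1c at 1.41 and Mycn at −0.73). The Jarid2 pair also had 2 higher and 1 lower, 12% beside 16.5%, all small (E2f6 at 0.54, Cdk4 at 0.43 and Tfdp1 at −0.57). No gene of this list was called in more than 1 pair.

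Over the 24 condition means of the directed series, the gene most like Cdkn2a among 18016 was its neighbour Cdkn2b (Pearson's r = 0.92 of log2 levels centred on undifferentiated WT cells). For Cdkn2b the order was Trp73 (0.95), then Cdkn2a. Ccnd2 was most like Lad1 (0.92) and S100a11 (0.92), Ccnd1 like the tubulin gene Tubb5 (0.94), Ccnd3 like Plcd1 (0.93), and Ccne1 like Pgam1 (0.95) and Emg1 (0.95). Cdkn1b was closest to Ctbs (0.90), Ccne2 to Rars (0.88), Cdkn2c to Gm31693 (0.87) and Cdkn2d to Pld1 (0.75). These are descriptions over means that share libraries and genotypes.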

How the data were processed

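Bulk RNA was sequenced from rRNA-depleted libraries as 75-base paired reads, and single cells were sequenced by SORT-seq in 384-well plates. For the directed series the authors deposited estimated counts per gene from Salmon, which were rounded to whole numbers. For the bulk EBs the authors deposited signal values, counts divided by a size factor, after alignment with Bowtie2. Whole reads were recovered from all 46 columns (100% of values within 0.02 of a whole number) and summed over the columns of a sample. For the single cells the authors deposited UMI counts of cells that passed their filters, on GRCm38, and their clusters were used as given. No doublets were called here, and 1143 to 105019 UMIs were held by a cell.

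CPM is the count scaled to a library total of 1000000. The directed series were tested with edgeR 4.0.16 (quasi-likelihood, TMM, filterByExpr, 1 mean per genotype and time) and the EB pairs with limma 3.58.1 in R 4.3.3 (log2 CPM, prior count 2, at least 1 CPM in 4 samples, day as a block, or line for the WT lines). Adjustment was over all genes tested. All members were reported, and of the 26 other genes at most the 4 called with the largest change. The members, lists and rules were chosen with earlier results of these data known. DESeq2 1.42.0, other scalings, filters and prior counts, the replicate number as a block and leaving out each library were the alternatives. In simulated data with known changes, 2-fold changes passed the adjusted p in 94% (mesoderm, Mtf2 null at 48 h) and 74% (EB, Eed pair) of 100 genes each, and 4-fold changes in 100%. Only genes with a mean above 100 reads were changed, at a fixed spread and with no effect of day. These rates therefore do not cover low members: in the mesoderm series Cdkn2a held 19 to 157 reads, Cdkn2b 6 to 104 and Cdkn2c 3 to 29. With the fold limit 45% of the 2-fold changes were called in that mesoderm comparison, and in the EB pair 8 unchanged genes were called. Libraries with the same replicate number did not deviate together in general (median r −0.019 in mesoderm and 0.067 in endoderm, from −0.44 to 0.54 over pairs of groups). Some groups did, with r above 0.1 in 25 of 66 pairs in mesoderm and 27 of 66 in endoderm. The numbers were not used as pairs. Promoters were matched by symbol to RefSeq (7 of 10 members, 10 windows), and Ccnd1, Ccnd2 and Ccne2 had no entry.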

Additional observations from a re-analysis of the deposited data

Results flagged for a closer look

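The change of Ccne1 from undifferentiated cells to 48 h of mesoderm differentiation differed between Mtf2 null and WT cells by 1.06 on the log2 scale (SE 0.19, adjusted p = 6.8e-04 by edgeR's quasi-likelihood interaction test). Before differentiation Mtf2 null cells were lower (−0.73), and at 48 h the difference was 0.33 with an adjusted p of 0.077. The endoderm interaction was 0.46 (adjusted p = 0.067).

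The Ccnd1 difference between libraries labelled Jarid2 null and WT libraries at 24 h differed between the mesoderm and endoderm series by −1.68 (SE 0.26, adjusted p = 5.4e-04 by edgeR's quasi-likelihood test over all 48 libraries). Within the series it was −1.99 and −0.33. This test was added after the data were seen. No sample of the 30 groups of 4 tested stood far from the others.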

How the results depend on the processing

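Of 290 directed member values, 3 changed their call under DESeq2, 1 under size-factor scaling and 4 with no low count filter, and 4, 3 and 5 uncalled values changed sign. No called value changed sign under any alternative. The fit with a replicate block changed no call and no sign among the 290. Whether the replicate numbers pair the libraries is not given by the labels. Size-factor scaling kept 12 of the 13 counts of calls and gave 9 in place of 8 for WT over time in mesoderm. In the bulk EBs a prior count of 0.5 and edgeR on the recovered reads kept the 4 counts, a prior count of 5 gave 7 in place of 6 for the WT lines, and no low value filter gave 5 there and 3 in place of 4 in the Mtf2 pair. With no fold limit and an adjusted p below 0.05, calls were summed over 4 times (3 for WT), with 10 members at each. In mesoderm they were 10 for Mtf2 null, beside 22.8% to 39.2% of all genes by time. Jarid2 null there had 6 (0.212% to 23.2%) and WT over time 13 (35.4% to 38.9%). In the same order endoderm had 14 (26.2% to 40.6%), 4 (0.151% to 9.32%) and 14 (30.2% to 34.9%). Each endoderm interaction had 1, beside 22% (Mtf2 null) and 5.6% (Jarid2 null). In undifferentiated cells of both series each null genotype had 3 of 10 members called, beside 54.5% (Mtf2 null) and 20.4% (Jarid2 null). The WT 48 h change between the series had 1, beside 5.85%. DESeq2 gave 2 calls for Jarid2 null in mesoderm and 1 for its endoderm interaction, and no low count filter gave 2 and 1 and also 1 for the WT 48 h change between the series. With no day block the EB pairs gave 1 (Mtf2), 0 (Jarid2) and 0 (Eed) calls, and with no line block the WT lines gave 1.

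Leaving out each library in turn gave 3 to 4 (Mtf2 null), 1 to 2 (Jarid2 null) and 5 to 9 (WT) calls in mesoderm, 4 to 5, 0 to 1 and 4 to 9 in endoderm, and 0 to 1 for the mesoderm Mtf2 null and the endoderm Jarid2 null interactions. The other 2 interactions and the WT 48 h change between the series stayed at 0 to 0. In undifferentiated cells of both series the range was 1 to 1 for Mtf2 null and 0 to 1 for Jarid2 null. Leaving out a day gave 0 to 3 (Mtf2), 0 to 3 (Jarid2) and 0 to 0 (Eed) EB calls, and leaving out a line 0 to 5. The cause was not tested, though these fits hold fewer samples. In single cells 159 of 1140 values moved beyond their counting interval when cells were thinned to 2500 UMIs, averaged per cell or stripped of the deepest cells. Depth limits Cdkn2a, Cdkn2b and Cdkn2c there, which rest on 0 to 41 UMIs a library.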

Other observations

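In the single-cell EBs Cdkn1a, the p21 inhibitor outside the 10 members, was at 53.01, 54.5, 82.4 and 27.6 UMI CPM in Eed null cells on days 0, 4, 7 and 10, against 137, 232, 284 and 475 in WT. It was chosen after its values were seen, has 1 library for each genotype and day and was not tested. Mtap, beside Cdkn2a, ran from 93.8 to 333 UMI CPM over the 16 libraries.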
